A study of Mus musculus with 4 samples.

Results

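The cells described here are the natural killer (NK) cells and other innate lymphoid cells (ILCs) of mouse liver tumours. A cell was counted as one of them if at least 300 genes were detected and at most 25% of its unique molecular identifiers (UMIs, each the count of 1 captured transcript) were mitochondrial, if at least 2 of the 6 genes Ncr1, Klrb1c, Klre1, Klrk1, Eomes and Klra8 were detected, and if no UMI came from the 5 genes Cd3d, Cd3e, Cd3g, Cd79a and C1qa. Across 3 libraries, 89 of 25715 kept cells met the rule. The tumours were raised in male C57BL/6 mice, 18 weeks old when sampled, 10 weeks after hydrodynamic tail vein injection. All mice received plasmids for c-MYC (pT3-EF1α-c-MYC) and AKT (pT3-EF1α-AKT) with the SB100X transposase. The vector group also received the empty pT3 plasmid, and the KLF2 group received pT3-EF1α-KLF2, in which the EF1α promoter drives the transcription factor KLF2. The EF1α promoter is active in many cell types, and hydrodynamic injection delivers plasmids mainly to hepatocytes. The groups hold 2 libraries each, labelled biological replicates, and no matrix of vector replicate 1 was analysed here.

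NK cells are lymphocytes without rearranged antigen receptors that kill stressed or transformed cells with perforin and granzymes and that release interferon gamma and chemokines. Their activity is set by a balance of activating and inhibitory receptors, among them the lectin-like receptors of the natural killer gene complex, which in mice includes the Ly49 (Klra) family that binds MHC class I. The liver holds circulating NK cells, which depend on the transcription factor Eomes, beside resident ILC1, which lack Eomes and carry CD49a (Itga1), CXCR6 and TRAIL (Tnfsf10). Both kinds carry NKp46 (Ncr1) and NK1.1 (Klrb1c), so the rule takes in both.

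The libraries differed in depth and in how widely T cell transcripts were found. Kept cells had a median of 3191 UMIs in vector replicate 2, 8912 in KLF2 replicate 1 and 5854 in KLF2 replicate 2. The median mitochondrial share was 11.9%, 0.223% and 0.345%. Barcode names recurred between libraries (595, 1146 and 550 names over the 3 pairs). T cell transcripts were widespread in the vector library. A UMI of Cd3d, Cd3e or Cd3g was found there in 45.3% of endothelial cells, against 0.746% and 3.18% in KLF2 replicates 1 and 2. These were kept cells with at least 3 endothelial genes, and T cells were not left out of them. In the vector library 18.0% of T cells held at least 3 endothelial markers. The parts of free RNA, T cells and doublets in these values were not tested. The median depth of these endothelial cells was 5244, 10854 and 7410 UMIs. The rule's exclusion genes removed different shares of cells. Of the cells with at least 2 rule genes, 238 of 296 held an exclusion gene in vector replicate 2, 13 of 23 in KLF2 replicate 1 and 48 of 69 in KLF2 replicate 2.

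NK and innate lymphoid cells (NK/ILC cells) were rare in all 3 libraries. Vector replicate 2 held 58 among 8403 kept cells (0.690%, 95% Wilson interval 0.534 to 0.891), KLF2 replicate 1 held 10 among 6209 (0.161%, 0.0875 to 0.296) and KLF2 replicate 2 held 21 among 11103 (0.189%, 0.124 to 0.289). By this denominator the vector library was the highest and the KLF2 intervals overlapped each other but not that of the vector library. Set against lymphocytes, the order was the opposite. NK/ILC cells made up 2.51% (1.95 to 3.23) of NK/ILC plus T cells in vector replicate 2, 12.7% (7.02 to 21.8) in KLF2 replicate 1 and 8.79% (5.82 to 13.1) in KLF2 replicate 2. T cells (at least 2 of Cd3d, Cd3e and Cd3g) numbered 2251, 69 and 218 in the same order, which is 26.8%, 1.11% and 1.963% of kept cells. Cd3 genes bar cells from the NK/ILC class and define the T cells, so the widespread Cd3 UMIs of vector replicate 2 bear on both counts. Their part was not tested. With 1 vector library no test of the groups is possible, and the intervals cover counting error only.

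**Figure D1:**
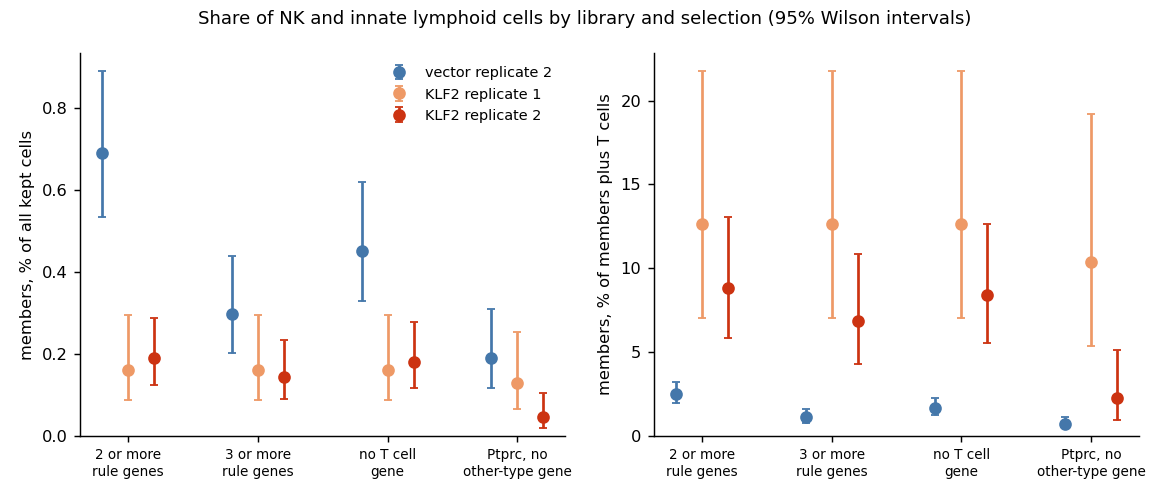
Share of NK and innate lymphoid cells in each library (points, with 95% Wilson intervals as bars) under 4 selections on the x axis, as a percent of all kept cells (left) and of these cells plus T cells (right). On the left vector replicate 2 sits above both KLF2 libraries with the main rule (0.690% against 0.161% and 0.189%), and on the right it sits below them (2.51% against 12.7% and 8.79%).

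The shares moved with how strictly the cells were chosen. In vector replicate 2, 33 of the 58 cells had exactly 2 rule genes, against 0 of 10 in KLF2 replicate 1 and 5 of 21 in KLF2 replicate 2. Requiring at least 3 rule genes left 25, 10 and 16 cells, or 0.298%, 0.161% and 0.144% of kept cells. Requiring the leukocyte gene Ptprc (CD45) and no UMI of Alb, Krt8, Krt18, Krt19, Pecam1 or Kdr left 16, 8 and 5 cells, or 0.190%, 0.129% and 0.0450%. Leaving out cells with a UMI of Trac, Cd4, Cd8a, Cd8b1, Cd5 or Cd6 left 38, 10 and 20 cells, or 0.452%, 0.161% and 0.180%. The vector share stayed the highest of the 3 under each of these choices, but with at least 3 rule genes its interval (0.202 to 0.439) overlapped those of both KLF2 libraries, and with Ptprc required (0.117 to 0.309) that of KLF2 replicate 1. Of NK/ILC plus T cells, the shares were 1.10%, 12.7% and 6.84% with at least 3 rule genes and 1.66%, 12.7% and 8.40% without T cell genes. With Ptprc required they were 0.706% (0.435 to 1.14), 10.4% (5.36 to 19.2) and 2.24% (0.961 to 5.14). There the intervals of vector replicate 2 and KLF2 replicate 2 overlapped. NK/ILC cells themselves had a median of 4274.5, 3826.5 and 3426 UMIs and of 1242.5, 1453.5 and 1202 genes. Their median mitochondrial share was 9.52%, 0.186% and 0.239%.

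Rule genes were counted in endothelial cells in the same way. Among cells with no exclusion gene, 8 of 851 endothelial cells of vector replicate 2 carried at least 2 rule genes (0.940%, 0.477 to 1.84), against 58 of 3086 kept cells (1.88%). At least 3 rule genes were carried by 4 of the 851 endothelial cells (0.470%, 0.183 to 1.20), against 25 of the 3086 kept cells (0.810%). These 8 and 4 endothelial cells meet the rule themselves and are counted among the 58 and the 25. The values are thus no separate measure of free NK transcripts. In the KLF2 libraries the count was 0 of 101 and 0 of 207 endothelial cells at either threshold. The part of captured NK transcripts in the vector share was not tested. Cells just outside the rule looked different from those just inside it. In vector replicate 2, Ptprc was detected in 36.0% of the 264 cells with 1 rule gene and in 72.7% of the 33 cells with 2, and Nkg7, a granule membrane protein of cytotoxic lymphocytes, in 28.0% and 69.7%. The median cell held 2 of 16 NK identity genes outside the rule with 1 rule gene and 7 with 2.

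The name of the population was checked against genes the rule did not use. Among the 33 vector cells with exactly 2 rule genes, Gzma was detected in 6.06% and Klrd1 in 21.2%, and whether all of these are NK or innate lymphoid cells was not settled. At least 3 of 12 T cell marker genes were detected in 25 of 58 NK/ILC cells of vector replicate 2, in 2 of 10 of KLF2 replicate 1 and in 4 of 21 of KLF2 replicate 2, against 86.5%, 97.1% and 85.8% of T cells. Summed over the 12 genes, the level in NK/ILC cells was 1257, 715 and 516 CPM (a gene's count scaled to the same total of UMIs in each sum), against 3017, 3922 and 2414 CPM in T cells. The constant region of the T cell receptor alpha chain, Trac, was at 27.2 CPM in the vector NK/ILC cells and at 0 in both KLF2 libraries. Endothelial, hepatocyte and dendritic cell genes were also present in the vector cells: at least 3 genes of the list were found in 14, 16 and 15 of 58 cells, against 0, 0 and 0 of 10 and 0, 0 and 3 of 21. Among T cells of the vector library, 18.0% held at least 3 endothelial and 27.9% at least 3 dendritic cell genes. Summed over 10 dendritic cell genes, levels were 2382, 56.4 and 251 CPM in NK/ILC cells against 1242, 193 and 279 in T cells. Over 12 macrophage and monocyte genes they were 725, 207 and 229 CPM against 401, 657 and 385. Of both lists, the comparison with T cells below called H2-Ab1, Lyz2 and Ccr2 higher and Ccr7 and Ly6c2 lower. The KLF2 cells instead carried genes of the KLF2 tumour compartment, with at least 3 such genes in 3 of 10 and 9 of 21 cells and in none of 58. The part of these transcripts in the results was not tested.

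The genes of the rule are given as a description. Ncr1, the activating receptor NKp46, was at 190 CPM in vector replicate 2, 169 in KLF2 replicate 1 and 258 in KLF2 replicate 2. Klrb1c, which encodes NK1.1, was at 264, 865 and 408 CPM, and Klre1, a lectin-like receptor, at 167, 451 and 416 CPM. Klrk1, the activating receptor NKG2D, was at 446, 320 and 236 CPM. The vector library thus had the highest Klrk1 level and the lowest Klrb1c and Klre1 levels of the 3. Eomes was at 85.4, 132 and 57.3 CPM, from 17, 6 and 4 cells. Klra8, the activating Ly49 receptor Ly49H, was at 11.6, 150 and 193 CPM, from 2, 2 and 8 cells.

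The cells were next compared with T cells of the same library, which share free RNA and processing with them. NK/ILC cells carried higher levels of the adaptors that pass on NK receptor signals, of granzyme A and perforin, of the chemokine Xcl1 and of lectin-like receptors. Levels of the T cell receptor genes Trac and Trbc2 and of the co-receptors Cd4, Cd8a and Cd8b1 were lower. In vector replicate 2 and KLF2 replicate 2, the libraries with at least 20 cells of each class, 63 of 7415 genes tested were higher (0.85%) and 78 were lower (1.05%) by edgeR's quasi-likelihood test at an adjusted p of 0.05. The fit has 1 residual degree of freedom among libraries, with the spread shared over genes, so the size of its p-values rests on few libraries. The rule's own 11 genes are left out of these counts. KLF2 replicate 1 did not enter the fit, and its values stand beside the result.

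Tyrobp, which encodes the adaptor DAP12, was at 1792 CPM in the NK/ILC cells of vector replicate 2, 1768 in KLF2 replicate 1 and 1726 in KLF2 replicate 2, against 114, 20.8 and 56.9 CPM in T cells. All 3 libraries of NK/ILC cells lay close together and far above the T cells, and the log2 difference was 4.24 ± 0.23 (SE; edgeR adjusted p = 1.88e-70). Fcer1g, the adaptor of NKp46 and CD16, was at 931, 1637 and 967 CPM against 93.0, 39.5 and 81.7 CPM in T cells (log2 difference 3.29 ± 0.24, edgeR adjusted p = 3.29e-38). Other signalling genes past the test were Syk, the kinase downstream of these adaptors (log2 2.24 ± 0.57, edgeR adjusted p = 0.00745), the phospholipase Plcg2 (3.02 ± 0.64), the adaptor Lat2 (2.53 ± 0.63) and the kinase Txk (1.67 ± 0.33). The T cell adaptor Lat and the zeta chain Cd247 were lower, by log2 -2.56 ± 0.40 and -1.67 ± 0.47. In all, 6 of 21 tested receptor adaptors and kinases were higher and 2 lower, with a list median of -0.30 against -0.06 over all genes tested.

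Lectin-like receptors of 1 chromosome region were among the higher genes. Over chr6:128609227-131247362 (GRCm38), the natural killer complex as bounded by its Klr genes, 16 genes were tested, of which 8 were higher and 0 lower. The rule genes Klrb1c, Klre1, Klrk1 and Klra8 lie in the same region. The cells were thus chosen by neighbours of the tested genes, and the part of that choice in the count was not tested. Klrb1b, the inhibitory receptor NKR-P1B (chr6:128813706-128826331), was at 310, 226 and 115 CPM in NK/ILC cells of vector replicate 2, KLF2 replicate 1 and KLF2 replicate 2, against 5.76, 4.16 and 4.81 in T cells (log2 5.33 ± 0.45, edgeR adjusted p = 6.19e-29). Klrb1a was at 85.4, 56.4 and 115 CPM against 1.25, 0 and 2.40 CPM (log2 5.77 ± 0.65). Klrd1, which encodes CD94, the partner of the NKG2 receptors, was at 140, 357 and 365 CPM against 41.2, 116 and 99.4 (log2 1.67 ± 0.32, edgeR adjusted p = 3.95e-05). Its partner Klrc1, the inhibitory receptor NKG2A, was at 136, 75.2 and 129 CPM against 16.6, 47.8 and 40.1 (log2 2.30 ± 0.40). In each library the NK/ILC level of these 4 genes was above the T cell level, in KLF2 replicate 1 too. Klrb1f, Klrc2 and Klri2 were also higher, by log2 3.65 ± 0.61, 2.72 ± 0.61 and 3.27 ± 0.60. The Ly49 gene Klra4 (Ly49D, an activating receptor, chr6:130043731-130067271) was at 31.0, 828 and 494 CPM against 1.17, 0 and 0 in T cells, with the highest fitted difference of the named genes (log2 6.28 ± 0.55); its fold is not a bound, since 1 T cell group is at 0. Genes of the Klra, Klrb1 and Klrc families are near copies, so how reads were split among them is uncertain.

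Effector genes differed in part. Gzma, the protease granzyme A, was at 349 CPM in NK/ILC cells of vector replicate 2, 5700 in KLF2 replicate 1 and 2357 in KLF2 replicate 2, against 16.5, 129 and 230 CPM in T cells (log2 3.68 ± 0.24, edgeR adjusted p = 2.38e-50). Prf1, the pore-forming perforin, was at 93.1, 508 and 215 CPM against 29.9, 27.0 and 18.4 (log2 2.33 ± 0.40, edgeR adjusted p = 1.03e-06). Both genes were above T cells in every library. Gzmc was also called (log2 4.54 ± 0.48), but 84 of its 98 UMIs in vector replicate 2 came from 1 cell. Gzmk, a granzyme of memory T cells, was lower (log2 -3.76 ± 0.77), and Gzmb was not past the test (log2 0.38 ± 0.41, edgeR adjusted p = 0.944). Nkg7 was at 757, 1110 and 931 CPM in NK/ILC cells against 683, 1228 and 622 in T cells and was not past the test either (edgeR adjusted p = 0.935). Over the list of granule and death ligand genes, 3 of 19 tested were higher and 1 lower, with a median of 0.37.

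Chemokines were led by Xcl1, which attracts XCR1+ dendritic cells. It was at 1715 CPM in NK/ILC cells of vector replicate 2, 2577 in KLF2 replicate 1 and 2457 in KLF2 replicate 2, against 461, 453 and 506 in T cells (log2 1.93 ± 0.20, edgeR adjusted p = 5.79e-19). Ccl3 and Ccl4, chemokines that attract other leukocytes, were called higher (log2 1.13 ± 0.26 and 0.85 ± 0.21, edgeR adjusted p = 0.00126 and 0.00449). Their libraries were unlike: Ccl4 was at 586, 414 and 2529 CPM in NK/ILC cells against 595, 197 and 639 in T cells, so in vector replicate 2 the classes were level. Ifng, the interferon gamma gene, was at 109, 132 and 115 CPM in NK/ILC cells.

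Of the genes tied to identity and development, 10 of 15 NK identity genes outside the rule were higher and 0 lower (median log2 1.82). Cd7 was among them, at 698, 207 and 107 CPM against 106, 123 and 72.9 in T cells (log2 1.82 ± 0.30, edgeR adjusted p = 2.87e-07); in the KLF2 libraries its distance from T cells was small. Itgax (CD11c) was at 178, 37.6 and 71.6 CPM against 15.3, 6.24 and 4.01 (log2 3.56 ± 0.46, edgeR adjusted p = 5.82e-12). The co-receptors Cd244a (2B4) and Cd160 were higher by log2 2.69 ± 0.50 and 1.29 ± 0.36, and the checkpoint receptors Pdcd1 and Ctla4 were lower by -2.75 and -1.51. Among 25 transcription factors none was higher and Tox2, Klf2 and Klf6 were lower. The endogenous Klf2 gene, a regulator of lymphocyte egress, was at 279, 357 and 193 CPM in NK/ILC cells against 478, 272 and 400 in T cells (log2 -1.03 ± 0.26, edgeR adjusted p = 0.00541); reads of the plasmid and of the endogenous gene cannot be told apart in these counts. In KLF2 replicate 1 the order was the opposite, and with that library's 10 cells in the fit the edgeR adjusted p was 0.28. Tbx21 (T-bet), Il2rb and Id2 did not pass (log2 0.88, 0.84 and 0.71, edgeR adjusted p = 0.414, 0.0525 and 0.0724).

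Most T cell markers that the rule did not use were lower. Trbc2, a constant region of the T cell receptor beta chain that NK cells can transcribe without rearrangement, was at 237, 357 and 136 CPM in NK/ILC cells against 915, 1438 and 882 in T cells (log2 -2.39 ± 0.25, edgeR adjusted p = 4.10e-19). Cd8b1 was at 19.4, 0 and 0 CPM against 149, 395 and 202 (log2 -3.91 ± 0.52), and Cd4 at 7.76, 0 and 7.16 CPM against 156, 64.4 and 71.3 (log2 -4.15 ± 0.63). Bcl11b, the transcription factor of T lineage commitment, was at 38.8, 0 and 0 CPM against 217, 173 and 104 (log2 -3.05 ± 0.47, edgeR adjusted p = 2.05e-08). Of 12 T cell markers tested, 8 were lower and 0 higher, with a median of -2.79. The T class was itself chosen by Cd3 genes and the NK/ILC class by their absence. Trbc1 was not called, and was detected in 62.1%, 70% and 66.7% of NK/ILC cells against 46.4%, 55.1% and 42.7% of T cells. Tcrg-C4 and Trdv2-2 were called higher and Tcrg-C2 lower. Summed over 6 gamma delta T cell markers, levels were 136, 113 and 86.0 CPM against 77.1, 303 and 174 in T cells. The part of gamma delta T cells was not tested. Genes of dissociation stress were lower for 9 of 24 (median -0.65), among them Fos, Junb and Hspa1b. UMIs were found for 7 of 12 genes listed for ILC2 and 5 of 10 listed for ILC3, several of which other lymphocytes also express. Among those not found, Il1rl1, Il17rb, Il13, Il5, Calca, Il23r, Il22, Il17a and Ccr6 had no UMI in 89 cells. Pooled over the libraries, this allows a share of cells with a UMI of up to 3.37% for each. Because the rule asked for NK receptor genes or Eomes, these zeros do not measure ILC2 or ILC3 in the tumours.

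**Figure D2:**
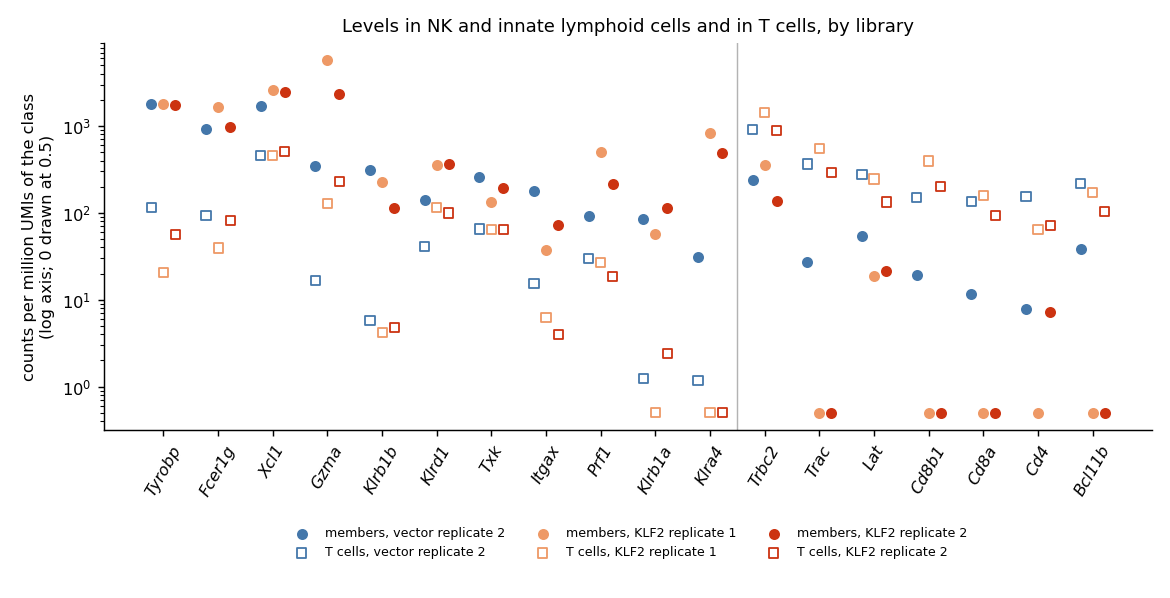
Level of 18 genes in NK and innate lymphoid cells (filled circles) and T cells (open squares) of each library, in CPM of the class on a log axis, with values of 0 drawn at 0.5. Left of the grey line are genes higher in the NK and innate lymphoid cells, such as Tyrobp (1726 to 1792 against 20.8 to 114), and right of it genes that were lower, such as Trbc2 (136 to 357 against 882 to 1438).

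Calls against T cells were stable for a core of genes. Tyrobp, Fcer1g, Gzma, Klrd1 and Xcl1 (higher) and Trbc2 (lower) were called in all 14 fits run. DESeq2 on the same sums called 15 genes higher and 7 lower, and thinning every cell to 1000 UMIs, with at least 8 cells per class, left 6 and 3.

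In every library the NK/ILC level of Gzma, Fcer1g, Klrb1b and Xcl1 was above the T cell level. For these genes, picked from the higher genes with an entry in the reference table, upstream sequences are shown. Each is the 250 bases before the annotated start, 5′ to 3′ on the gene's strand (all minus), from RefSeq on GRCm38.p6, at chr13:113100982-113101231, chr1:171234350-171234599, chr6:128826316-128826565 and chr1:164935523-164935772 in that order. Capitals mark matches, on either strand, to TGTGGT, the core of sites for RUNX factors, or AGGTGT, the core of sites for T-box factors such as Eomes and T-bet; the 2 motifs do not overlap here.
Gzma: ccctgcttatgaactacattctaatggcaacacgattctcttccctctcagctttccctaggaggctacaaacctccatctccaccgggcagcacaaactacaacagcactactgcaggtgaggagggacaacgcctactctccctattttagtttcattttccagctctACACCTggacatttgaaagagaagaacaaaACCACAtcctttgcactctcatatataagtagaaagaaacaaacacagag
Fcer1g: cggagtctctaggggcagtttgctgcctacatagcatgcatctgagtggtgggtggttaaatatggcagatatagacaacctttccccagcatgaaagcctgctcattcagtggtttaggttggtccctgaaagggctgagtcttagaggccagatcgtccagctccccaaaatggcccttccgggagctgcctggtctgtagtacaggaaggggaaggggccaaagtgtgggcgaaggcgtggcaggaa
Klrb1b: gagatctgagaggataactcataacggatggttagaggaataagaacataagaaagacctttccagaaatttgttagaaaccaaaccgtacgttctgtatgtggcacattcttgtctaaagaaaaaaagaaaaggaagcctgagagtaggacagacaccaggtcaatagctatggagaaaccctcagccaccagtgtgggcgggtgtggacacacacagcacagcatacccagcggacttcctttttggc
Xcl1: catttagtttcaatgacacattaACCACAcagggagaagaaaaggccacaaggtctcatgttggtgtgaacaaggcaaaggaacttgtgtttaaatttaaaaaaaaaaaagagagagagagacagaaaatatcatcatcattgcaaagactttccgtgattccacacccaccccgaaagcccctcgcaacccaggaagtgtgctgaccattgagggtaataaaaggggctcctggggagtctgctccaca
The Gzma window holds 1 match to each motif, in reverse orientation (ACACCT and ACCACA), 80 and 50 bases before the start. The Xcl1 window holds 1 RUNX match 227 bases before the start, and the Fcer1g and Klrb1b windows hold neither. Of 32851 windows of the same length in the table, 4614 hold the RUNX letters (14.05%) and 3887 the T-box letters (11.8%). Klrb1b has 2 listed starts, of which 1 is shown. A match is a description of the letters and not of binding.

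Within the population, cells with Eomes and cells with ILC1 marker genes differed in several genes. An Eomes UMI was found in 17 of 58, 6 of 10 and 4 of 21 cells, and at least 1 of Itga1, Cd200r1, Cxcr6, Tnfsf10 and Il7r without Eomes in 24, 2 and 8 cells; 17, 2 and 9 cells had neither. No library held 20 cells of both subsets, so values are given with no test. Itga1 was detected in 33.9%, 68.3% and 42.0% of endothelial cells, against 19.0%, 20% and 14.3% of NK/ILC cells. Cxcr6 was detected in 30.1%, 50.7% and 32.6% of T cells, against 15.5%, 0% and 19.0% of NK/ILC cells. The part of free RNA in the choice of ILC1-marker cells was not tested. Klra4 had 8, 31 and 51 UMIs in Eomes cells and 0, 0 and 0 in ILC1-marker cells; the cells with neither held 0, 13 and 18. Tyrobp was at 2188, 2911 and 2997 CPM in Eomes cells against 1349, 1050 and 892 in ILC1-marker cells and 1977, 1126 and 2903 in those with neither. In vector replicate 2, 76 of the 462 Tyrobp UMIs came from 1 cell, and 82 of 93 UMIs of the myeloid gene Lyz2 lay in Eomes cells; their part was not tested. The inhibitory receptor Klrb1b was at 137, 197 and 35.7 CPM in Eomes cells against 522, 300 and 108 in ILC1-marker cells, and Xcl1 at 388, 543 and 1177 CPM against 2365, 1499 and 2374. For Klra4, Tyrobp, Klrb1b and Xcl1 the order of Eomes and ILC1-marker cells was the same in all 3 libraries. Gzma was at 627, 10313 and 3247 CPM in Eomes cells against 218, 2024 and 217 in ILC1-marker cells, of which the first 2 values came from 1 cell each. The cells with neither held 185, 6435 and 7695 CPM, in KLF2 replicate 2 more than the Eomes cells. The order of Ccl5, a chemokine of cytotoxic cells, was not shared: 752 CPM in Eomes cells against 3657 in vector replicate 2, but 19688 against 7272 and 14735 against 1398 in the KLF2 libraries. Gzmc was at 0 UMIs in Eomes cells of every library and at 84, 5 and 7 UMIs in ILC1-marker cells.

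The study's own question is how tumours with KLF2 differ from those without it. In NK/ILC cells of KLF2 replicate 2, 389 of the 4175 genes whose mean reached 30 CPM were at least 2-fold higher than in vector replicate 2 with Poisson intervals apart (9.32%), and 185 were at least 2-fold lower (4.43%). NK/ILC sums alone allow no test, since 1 library per group held 20 cells or more, and the intervals cover counting error only. A joint edgeR fit with T cells, whose 1 residual degree of freedom comes from the T cells of the KLF2 libraries, called 194 genes higher and 143 lower of 7906 tested; it assumes that NK/ILC sums vary like those T cells. Of the 389 higher and 185 lower genes called by fold, 347 and 85 were also 2-fold apart the same way in the 10 cells of KLF2 replicate 1. Most of the differences were shared with T cells of the same libraries: 70.4% of the higher and 63.8% of the lower genes were 2-fold apart in T cells in the same direction.

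Except for Ctsz, the 12 highest and the 12 lowest genes were of this shared kind. Ctsz, a lysosomal cathepsin, was at 198, 18.8 and 21.5 CPM in NK/ILC cells and at 79.4, 112 and 73.7 in T cells. Cmss1 was at 27.2 CPM in NK/ILC cells of vector replicate 2, 8860 in KLF2 replicate 1 and 13561 in KLF2 replicate 2. T cells held 14.9, 9068 and 12962 CPM of it. Il31ra, a cytokine receptor gene that marks the KLF2 tumour compartment, was at 0, 150 and 473 CPM in NK/ILC cells and at 0.0835, 285 and 481 in T cells. Among the others named by rank were Cdk8, Gphn, Camk1d and Jarid2. At the low end, Fabp4, a lipid-binding protein of endothelium, was at 535, 0 and 0 CPM in NK/ILC cells and 724, 4.16 and 20.8 in T cells, and the hepatocyte gene Fabp1 was at 341, 0 and 0 CPM. The MHC class II invariant chain Cd74 was at 1094, 18.8 and 100 CPM against 559, 60.3 and 97.0 in T cells. The levels in the NK/ILC and T cells of each library were thus of like size for Cmss1 and Il31ra.

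Among cytotoxic genes, Gzma, Gzmb, Prf1 and Srgn were at higher levels in the KLF2 cells. Gzma was at 349 CPM in vector replicate 2, 5700 in KLF2 replicate 1 and 2357 in KLF2 replicate 2, which is 16.3- and 6.75-fold higher in the KLF2 libraries. It was found in 10 of 58, 8 of 10 and 14 of 21 cells, and after thinning to 1000 UMIs in 10.53%, 80% and 57.1% of cells, against 0.242%, 0% and 1.93% of endothelial cells. The difference is larger than counting error, both KLF2 libraries lay above the vector library, and it held with at least 3 rule genes (589, 5700 and 2645 CPM). In T cells Gzma was also lowest in the vector library, at 16.5, 129 and 230 CPM. Prf1 was 5.45- and 2.31-fold higher, and Gzmb, at 23.3, 188 and 193 CPM, was 8.08- and 8.31-fold higher; the vector value rests on 6 UMIs, and 13 of the 27 UMIs of KLF2 replicate 2 came from 1 cell. Cma1, a chymase of mature NK cells, had 0, 10 and 7 UMIs, at least 4.31-fold higher in KLF2 replicate 2. Srgn, the granule proteoglycan serglycin, was at 303, 903 and 688 CPM. Of 17 granule and death ligand genes at this level, 4 were called higher and 1, Gzmc, lower, with a median log2 of 0.16 against 0.13 over all genes.

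The Ly49 receptors Klra4, Klra3 and Klra9 were also at higher levels in the KLF2 cells. Klra8, a Ly49 gene of the rule, was itself found in 2 of 58, 2 of 10 and 8 of 21 cells. The part of the rule in the Ly49 levels was not tested. Klra4 was at 31.0, 828 and 494 CPM, 26.7- and 15.9-fold higher, from 4 of 58, 6 of 10 and 9 of 21 cells. In KLF2 replicate 2, 37 of its 69 UMIs came from 1 cell. After thinning it was found in 1.75%, 50% and 19.0% of cells. Klra3 had 0, 8 and 19 UMIs and Klra9 had 0, 12 and 16 UMIs, at least 11.7- and 9.85-fold higher in KLF2 replicate 2; 0 of 58 vector cells allows a share of up to 5.17%. Of 5 Ly49 genes at this level 3 were called higher and 0 lower, with a median log2 of 3.62, against 0.63 for the same genes in T cells. Klrd1 was 2.56- and 2.62-fold higher, while Klrb1b was 1.37- and 2.71-fold higher in the vector library.

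Chemokines differed between the KLF2 libraries. Ccl3 was at 190, 621 and 1082 CPM, 3.27- and 5.69-fold higher in KLF2 replicates 1 and 2. In KLF2 replicate 1, 23 of its 33 UMIs came from the deepest cell, without which the level was 317 CPM. Ccl4 was at 586, 414 and 2529 CPM, so KLF2 replicate 1 lay below the vector library and KLF2 replicate 2 above it. Ccl5 was at 2316, 12171 and 5781 CPM, and in T cells at 3631, 6011 and 4059. Ifng (109, 132 and 115 CPM), Tyrobp, Fcer1g and Xcl1 were not called in either direction.

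Cd7, Thy1, Ltb and Emb, genes listed for immature NK cells, were at higher levels in the vector cells. Cd7 was at 698, 207 and 107 CPM, 3.37- and 6.50-fold higher than in KLF2 replicates 1 and 2, from 33 of 58, 5 of 10 and 5 of 21 cells. Thy1, a surface glycoprotein of T cells and immature innate lymphocytes, was at 334, 37.6 and 64.5 CPM, against 436, 345 and 200 in T cells; it was 5.17-fold higher in the vector library than in KLF2 replicate 2. Ltb, the lymphotoxin beta gene, was at 322, 113 and 78.8 CPM, and Emb at 175, 0 and 28.7 CPM. Of 10 immature NK genes, 4 were called lower in KLF2 cells and 1 higher, with a median log2 of -0.87 against -0.30 for these genes in T cells. Of 11 ILC1 genes, Gzmc and Tmem176b were called lower in KLF2 cells and Inpp4b higher, with a median log2 of -0.82 against 0.07 in T cells. Of 9 genes of mature NK cells, Cma1, Prf1 and Gzmb were called higher and Irf8 (206, 207 and 57.3 CPM) lower. Over all genes, 9.32% were called higher and 4.43% lower. The median log2 of the mature genes was 0.10 in KLF2 replicate 2, against 0.13 over all genes. In the 10 cells of KLF2 replicate 1 it was 2.33, against 0.43 over all genes. The T cell markers noted in 25 of 58 vector cells include Thy1, and their part in the differences between vector and KLF2 cells was not tested. With at least 3 rule genes Thy1 was at 373, 37.6 and 42.0 CPM and Cd7 at 932, 207 and 109 CPM.

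Other gene groups were described in the same way, beside 9.32% called higher and 4.43% called lower over all genes. Of 11 MHC class I genes, 3 were called lower in KLF2 cells and 0 higher, with a median log2 of -1.07 against -0.82 in T cells; H2-D1, a classical class I heavy chain, was at 1474, 677 and 623 CPM and in T cells at 1240.1, 865 and 597. Of 22 dissociation stress genes, 5 were lower and 1, Atf3, higher. The chaperone gene Hspa1a was at 640, 207 and 93.1 CPM and in T cells at 751, 116 and 221. For both genes the KLF2 libraries lay below vector replicate 2 in T cells too. Of 14 S and G2M phase genes, Top2a, Stmn1 and Cenpf were called higher. Top2a, the topoisomerase of dividing cells, was at 50.4, 188 and 172 CPM, from 6, 3 and 7 cells, and in T cells at 103, 129 and 107. Of 8 genes of the response to TGF-beta, Tgif1, Cd9 and Nedd9 were called higher and none lower. The median log2 of the 8 genes was 1.12, against 0.82 in T cells. Cd9 was at 73.7, 226 and 251 CPM and Nedd9 at 19.4, 169 and 136 CPM.

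**Figure D3:**
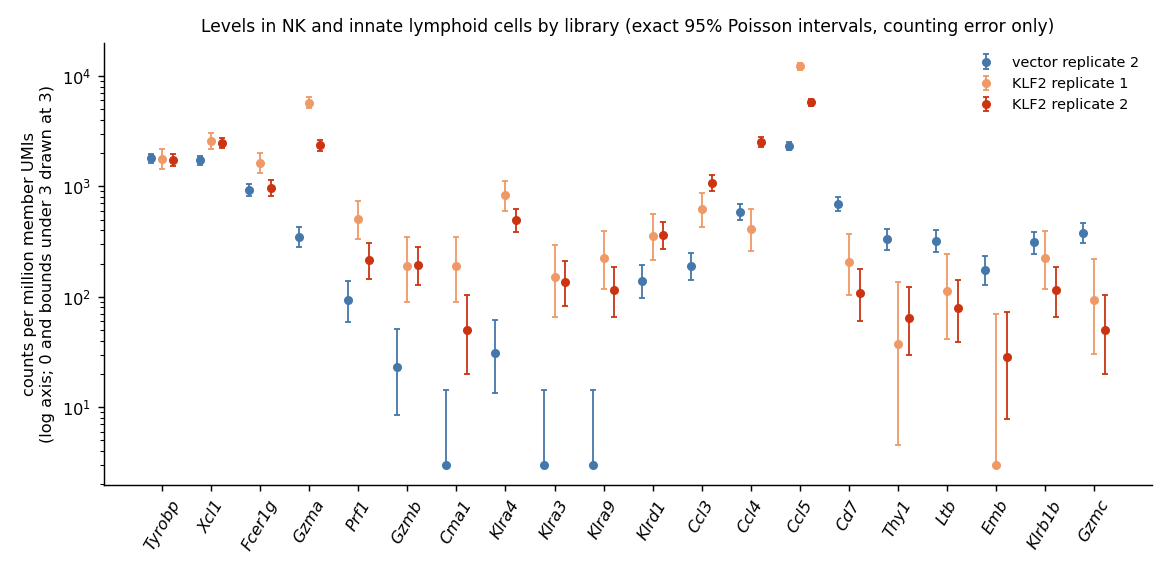
Level of 20 genes in the NK and innate lymphoid cells of each library, in CPM on a log axis, with exact 95% Poisson intervals (counting error only) and values or bounds under 3 drawn at 3. Gzma, Gzmb and the Ly49 genes lie higher in both KLF2 libraries, Cd7, Thy1 and Ltb lie higher in vector replicate 2, and Tyrobp lies at 1726 to 1792 in all 3.

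Single cells carried part of some levels. In KLF2 replicate 1 the deepest cell held 40.7% of the UMIs of its 10 cells, and in KLF2 replicate 2 the deepest held 27.2% of those of 21 cells, against 5.18% in vector replicate 2. For Car3, 54 of 57 UMIs of KLF2 replicate 2 lay in 1 cell, for Inpp4b 35 of 49, and for the myeloid gene Lyz2 80 of 93 UMIs of vector replicate 2. Gzma was not of this kind, with UMIs in most KLF2 cells.

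**Figure D4:**
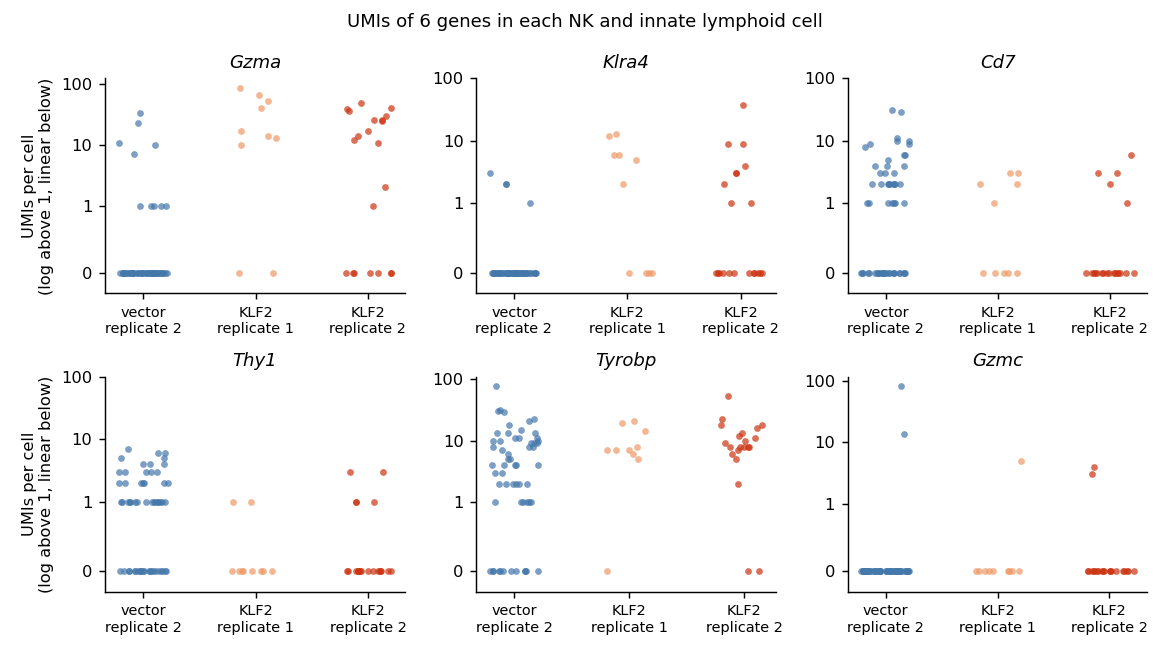
UMIs of 6 genes in each NK and innate lymphoid cell, 1 point per cell, by library (58, 10 and 21 cells), on an axis that is linear to 1 and logarithmic above it. Gzma is found in 10, 8 and 14 cells of vector replicate 2, KLF2 replicate 1 and KLF2 replicate 2, Cd7 in 33, 5 and 5, and the Gzmc UMIs of the vector library lie in 2 cells.

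Whether a KLF2 difference was particular to NK/ILC cells was tested as the difference between their KLF2 difference and that of T cells. This needed the 10 cells of KLF2 replicate 1, a choice made after seeing the data, and left 1 residual degree of freedom. The vector arm is 1 library, whose own spread was not measured and was assumed to be that of the KLF2 libraries. Of 7348 genes tested, 9 passed edgeR's test at an adjusted p of 0.05 (0.122%). The KLF2 difference was more positive in NK/ILC cells than in T cells for Klra4 (log2 8.47 ± 1.89, edgeR adjusted p = 0.0108) and Ccl3 (2.39 ± 0.54, edgeR adjusted p = 0.0108). Klra4 had 0 UMIs in the T cells of both KLF2 libraries, so its fitted value depends on the fit and is no measure of size. The KLF2 difference was more negative in NK/ILC cells than in T cells for Gzmc, Ifi27l2a, Plac8, Gpr183, Ctsz, Lyz2 and Tcrg-C4. Gzma, Cd7 and Thy1 were not among the 9 genes, so for these a difference from T cells is not shown. DESeq2 called 0 genes on the same sums, with 49 at an unadjusted p under 0.05, against 252 with edgeR.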

How the data were processed

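Single cells of dissociated liver tumours were measured with the DNBelab C Series droplet kit, after mincing and 30 min of digestion. The authors deposited UMI counts per gene and cell barcode. PISA v1.0 and GRCm38 are named in the submitters' processing notes; aligner, annotation and cell calling were not given in the sources used here. The deposited counts held 12852, 6282 and 11240 barcodes and 45594544, 95374838 and 125458473 UMIs in vector replicate 2, KLF2 replicate 1 and KLF2 replicate 2, and no barcode had fewer than 522, 1000 and 1000 UMIs.

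Cells were kept and chosen as the report states, with no doublet caller; an alternative leaves out the 5% of cells with most UMIs. Counts were summed per library and class and scaled to a common total (CPM). The NK/ILC sums hold 257755, 53161 and 139589 UMIs. Classes were compared with edgeR 4.0.16 (R 4.3.3; quasi-likelihood test, TMM, filterByExpr, library as block, Benjamini-Hochberg adjustment) and with DESeq2 1.42.0, and the fit was tested on simulated data. KLF2 and vector were compared by fold, beside a joint edgeR fit with T cells: at least 2-fold, a mean of at least 30 CPM, exact 95% Poisson intervals apart and a floor of 3 UMIs per library; list medians add 10 CPM. Python 3.11.15, numpy 2.4.6, scipy 1.17.1 and pandas 2.3.3 were used. Replicates are labelled biological, and intervals cover counting error only.

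Genes were named by rank: the 12 highest and 12 lowest for KLF2 against vector, the 10 and 10 of the class test, and of each list up to 6 genes by level plus any called; the genes of all lists and the members were chosen with earlier results of these data known. Genes with most UMIs in 1 cell were singled out after their values were seen. Values of some genes are not reported here. The planned test of KLF2 against vector and the planned interaction could not be fitted at 20 cells per class, so the first is given as values and the second was refitted at 10 cells. Other settings were another tool, low-count filters, stricter cell filters, thinned cells, stricter marker rules and leaving out libraries.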

Additional observations from a re-analysis of the deposited data

Results flagged for a closer look

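For 9 genes the difference between KLF2 and vector libraries in NK/ILC cells was unlike that in T cells of the same libraries (edgeR interaction test, adjusted p of 0.05; 3 libraries, fitted with the 10 cells of KLF2 replicate 1 after the data were seen). The vector arm is 1 library, assumed to vary like the KLF2 libraries. Values are the log2 difference in NK/ILC cells minus that in T cells. Klra4, the activating receptor Ly49D, stood at 8.47 (with 0 UMIs in T cells of both KLF2 libraries, so the size is set by the fit) and Ccl3, a chemokine, at 2.39. Negative values were found for the granzyme Gzmc (-6.38), the interferon-induced gene Ifi27l2a (-4.58), Plac8 (-3.99), the oxysterol receptor Gpr183 (-3.93), the cathepsin Ctsz (-3.47), the myeloid lysozyme Lyz2 (-3.20) and Tcrg-C4 (-2.99), a constant region of the T cell receptor gamma chain.

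For Gzmc, 84 of 98 vector UMIs lay in 1 cell, for Lyz2, 80 of 93, and for Ccl3, 23 of 33 in KLF2 replicate 1. Ccl3 was called in 7 of 12 fits, Klra4 in 7 of 12, Gpr183 in 8 of 12 and Gzmc in 9 of 11. Ifi27l2a and Plac8 were called in 6 of 12, Ctsz and Lyz2 in 6 of 11 and Tcrg-C4 in 5 of 11. The direction was the same in every fit that gave a value for these genes, except for Lyz2 (9 of 11). DESeq2 called 0 of the genes tested.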

How the results depend on the processing

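With 1 vector library and 10 to 58 cells per library, the counts of genes set the limits. For KLF2 replicate 2 against vector replicate 2 in NK/ILC cells (389 higher, 185 lower), thinning cells to 1000 UMIs left 41 and 23, requiring Ptprc and no gene of another type left 61 and 29, and a joint edgeR fit with T cells called 194 higher. Without T cell genes, 102 were lower, and leaving out each KLF2 replicate in turn gave 76 to 198 lower. Of 428 values for single genes, 6 changed direction: Sparc at log2 0.45 (thinned) and 0.036 (Ptprc required), H2-Aa at 0.13 and 0.036, Col4a1 at 0.036 (Ptprc required) and Ccl4, which ran from -0.50 (without KLF2 replicate 2) to 2.11 (without KLF2 replicate 1).

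Against T cells (63 higher, 78 lower), DESeq2 called 15 and 7, and a filter on a mean of 30 CPM left 10 and 9. With no filter 33 were higher. At most 10% mitochondrial UMIs left 47 lower, and leaving out the 5% of cells with most UMIs left 38 lower. Fits chosen after the data were seen called 28 and 34 with at least 10 cells per class, 34 and 41 with Ptprc required, 40 and 29 without T cell genes, 6 and 3 with thinned cells, and 34 and 29 without KLF2 replicate 2. Ccl4 turned to -0.13 with Ptprc required and Gzmb to -0.30 without KLF2 replicate 2. For the interaction (2 higher, 7 lower), DESeq2 and the filter on a mean of 30 CPM called 0 and 0, thinning 1 and 0, at least 3 rule genes 1 and 3, and Ptprc required 0 higher. With no filter 1 was higher, and without the 5% of cells with most UMIs 13 were lower. Lyz2 stood at 0.62 with at least 3 rule genes and 0.34 without T cell genes.

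The vector share of NK/ILC cells (0.690%) was 0.381% after thinning, 0.298% with at least 3 rule genes, 0.190% with Ptprc required, 0.452% without T cell genes and 0.947% with at most 10% mitochondrial UMIs. With Ptprc required the share of KLF2 replicate 2 was 0.0450%. As shares of NK/ILC plus T cells the values were 2.51%, 12.7% and 8.79%. The share of vector NK/ILC cells with an Eomes UMI (29.3%) was 18.8% with Ptprc required. The causes of these shifts were not tested. No paired analysis was possible because no matrix of vector replicate 1 was analysed, so only replicate 2 was shared by the groups. The interaction at 20 cells per class or without a KLF2 library left no residual degree of freedom and was not run, and the comparison with T cells at 20 cells was not run for thinned cells, at least 3 rule genes or Ptprc required.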
